A study of Mus musculus with 23 samples.

Results

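The genes described here are the receptors of the EGF family (Egfr, Erbb2, Erbb3, Erbb4) and 6 ligands of that family (Areg, Ereg, Hbegf, Tgfa, Btc, Nrg1), taken by symbol from 2 tables of normalized counts. Of these 10 genes, 9 have a row in both tables, which list 35455 and 35454 genes. They comprise 4 receptors and 5 ligands. Areg is not analysed here.

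RNA came from tdTomato+ cells sorted by flow from the lungs of mice of mixed strain background, each library from 1 mouse. All mice carried the BrafCAT allele (CAT/+), which yields BRAFV600E together with tdTomato from the endogenous Braf promoter once CRE has acted, and CRE came from an adenovirus whose Sftpc promoter restricts it to Sftpc-expressing cells. Tumors carrying this allele alone, BRAFV600E, gave 1, 3 and 2 libraries at 2, 6 and 12 weeks post-initiation (p.i.). Tumors that also carried mutant Pik3ca (HR/+), BRAFV600E/PI3KαH1047R, gave 2, 4 and 2 libraries at the same weeks. A second table held BRAFV600E tumors at 12 weeks p.i. with 1 floxed Ppargc1a allele (PGC1αHet, 5 libraries) or 2 (PGC1αNull, 4 libraries). The mice were 3 to 4 months old. The 12 week mice received a lower viral titer than those at 2 and 6 weeks, so that titer and time cannot be told apart there.

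Receptors of the EGF family are tyrosine kinases that pair with each other at the cell surface when a ligand binds, and that feed the RAS/RAF and PI3K pathways. Egfr binds Ereg, Hbegf, Tgfa, Btc and Areg. Erbb3 and Erbb4 bind Nrg1, a neuregulin, and Erbb4 also binds Hbegf, Ereg and Btc. Erbb2 has no known ligand and acts as the favored partner, while Erbb3 has a very weak kinase and signals through its partners. Ligands are made as membrane proteins and are released by proteases such as Adam17. In the alveolus, signaling through these receptors is known for its part in growth and repair of the epithelium, where AT2 cells make surfactant and AT1 cells form the gas exchange surface.

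Promoter sequences in GRCm38.p6 (RefSeq) matched 6 of the 10 genes. The 250 bases before the start site are printed for Egfr and Btc, a receptor and a ligand whose levels went opposite ways across the libraries, as described under the time course. Egfr lies on chromosome 11 (GRCm38, 16752203 to 16918158, plus strand) and Btc on chromosome 5 (91357261 to 91402994, minus strand). Capitals mark matches on either strand to a GC box (GGGCGG), an AP-1 motif (TGANTCA), a cAMP response element (TGACGTCA) or a TATA box (TATAAA).
Egfr, chr11:16751953-16752202, plus strand: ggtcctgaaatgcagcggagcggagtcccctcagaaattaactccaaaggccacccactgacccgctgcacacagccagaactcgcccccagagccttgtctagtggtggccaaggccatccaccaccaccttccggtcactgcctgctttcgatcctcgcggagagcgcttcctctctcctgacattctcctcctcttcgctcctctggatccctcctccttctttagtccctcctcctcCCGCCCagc
Btc, chr5:91402995-91403244, minus strand: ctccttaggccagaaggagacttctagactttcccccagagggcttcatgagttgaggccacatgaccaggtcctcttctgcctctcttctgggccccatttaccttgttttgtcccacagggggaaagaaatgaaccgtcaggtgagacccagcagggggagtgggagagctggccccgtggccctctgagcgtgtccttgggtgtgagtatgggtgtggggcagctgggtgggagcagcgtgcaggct
The Egfr window held 1 GC box and none of the other 3 motifs, and the Btc window held none of the 4. Among 32851 promoter windows of this length, 32.7% held a GC box, 6.75% an AP-1 motif, 1.55% a cAMP response element and 12.4% a TATA box.

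Summed normalized counts ranged from 16433820 to 20287296 across the 14 libraries of the first table and from 7115753 to 9159567 across the 9 PGC1α libraries. All 10 AT2 markers, all 8 AT1 markers and all 10 endothelial markers were above 0 in each of the 14 libraries, while up to 2 markers each of macrophages, lymphocytes and neutrophils were at 0 in a library. Y-linked genes went against the sex labels of both BRAFV600E/PI3KαH1047R libraries at 12 weeks p.i. Kdm5d stood at 501.6 in the library labelled male and at 4728 in the library labelled female. Levels per kb, the members' log2 fold changes from 6 to 12 weeks and with the weeks combined, and the leading relations are also given without them. Ppargc1a, the floxed gene, ranged from 75.8 to 561.1 in PGC1αHet and from 38.0 to 124.0 in PGC1αNull, so that the libraries overlapped.

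The ligands Ereg and Hbegf and the receptor Erbb3 stood highest on average over the pooled weeks and genotypes, and Erbb4 stood near 0 in nearly every tumor. Per kb of the longest transcript, normalized counts averaged over the 14 libraries were 994 ± 876 for Ereg, a ligand of Egfr and Erbb4 (SD, n = 14). Hbegf, a heparin-binding ligand, followed at 685 ± 353 and Erbb3 at 351 ± 139. Tgfa, a high-affinity Egfr ligand, averaged 233 ± 60.9 and Erbb2 169 ± 52.5 per kb. Egfr averaged 91.4 ± 83.9 and Btc, which binds Egfr and Erbb4, 87.1 ± 52.8. Nrg1 averaged 33.7 ± 39.9 and Erbb4 1.84 ± 5.77. Each pair of neighbours in this order overlapped within 1 SD of the means, and Egfr was above Btc in 6 of 14 libraries. Nrg1 exceeded Erbb4 in 14 of 14 libraries. The order was not that of each library, since Ereg was the highest member in 9, Hbegf in 4 and Erbb3 in 1. In both BRAFV600E/PI3KαH1047R libraries of 2 weeks Ereg stood at 115.9 and 22.6 per kb. It lay there below Hbegf (325 and 306), Tgfa (199 and 160), Egfr (148 and 180), Erbb3 (127 and 136) and Nrg1 (130 and 72.3). With the median length of the coding transcripts in place of the longest, Egfr stood at 317 and Tgfa at 426 per kb, above Erbb2 and Erbb3 in turn, so the order of these 4 depends on the transcript length taken. The order was the same without both BRAFV600E/PI3KαH1047R libraries of 12 weeks, with Ereg at 909 ± 870 and Egfr at 103 ± 84.9 (SD, n = 12).

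**Figure D1:**
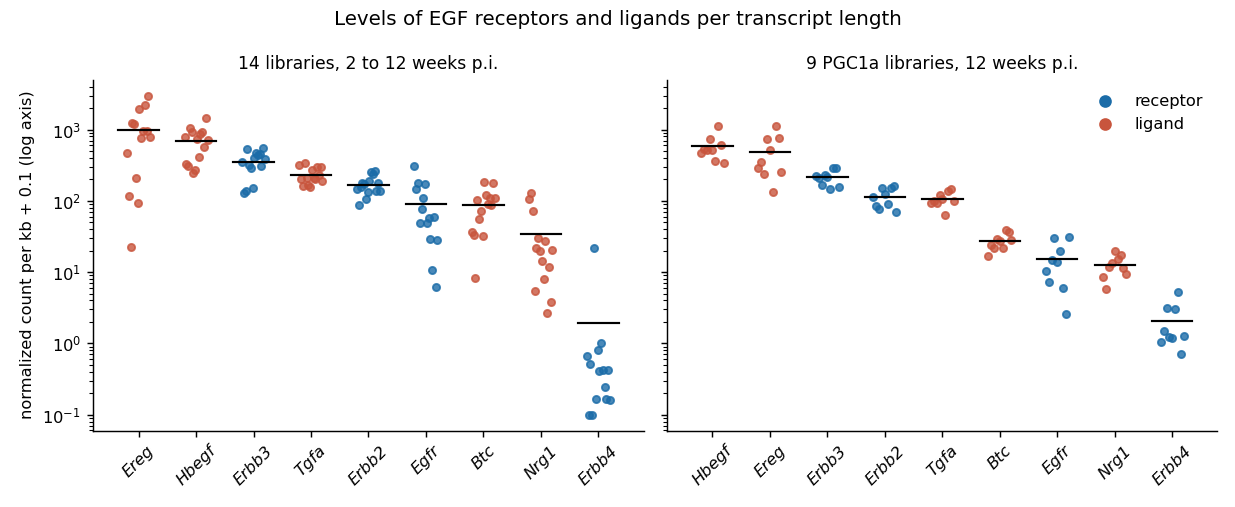
Normalized count per kb of transcript plus 0.1 (log axis) for each member, in the 14 libraries of the first table (left) and the 9 PGC1α libraries (right). Each point is 1 library, lines are means, receptors are blue and ligands red, and Ereg or Hbegf leads both orders while Erbb4 is last in both.

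In the 9 PGC1α libraries, normalized separately, Hbegf led at 579 ± 236 per kb, then Ereg at 490 ± 322 and Erbb3 at 215 ± 53.1 (SD, n = 9). Erbb3 was above Erbb2 (113 ± 35.4) in 9 of 9 libraries, and their ranges within 1 SD did not overlap. Tgfa (107 ± 24.6) was above Btc (27.1 ± 7.22) in 9 of 9 libraries. Egfr averaged 14.95 ± 10.02, Nrg1 12.4 ± 4.44 and Erbb4 1.94 ± 1.49 per kb. With the longest transcript, the order thus differed from that of the first table by swaps of neighbours, Hbegf with Ereg, Erbb2 with Tgfa and Btc with Egfr. With the median transcript length, Tgfa (196) was above Erbb2 and Egfr (51.9) above Btc (37.97) here too, as in the first table. Levels were not compared across the separately normalized tables.

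The members differed widely in how much they varied. Over the 14 libraries the highest normalized count exceeded the lowest 132-fold for Ereg, 51.1-fold for Egfr, 50.3-fold for Nrg1 and 22.4-fold for Btc. Hbegf varied 5.87-fold, Erbb3 4.30-fold, Erbb2 3.08-fold and Tgfa 2.13-fold. Over the 9 PGC1α libraries, Egfr varied 12.1-fold, Erbb4 8.62-fold and Ereg 8.42-fold, and Erbb3 varied least at 1.98-fold.

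**Figure D2:**
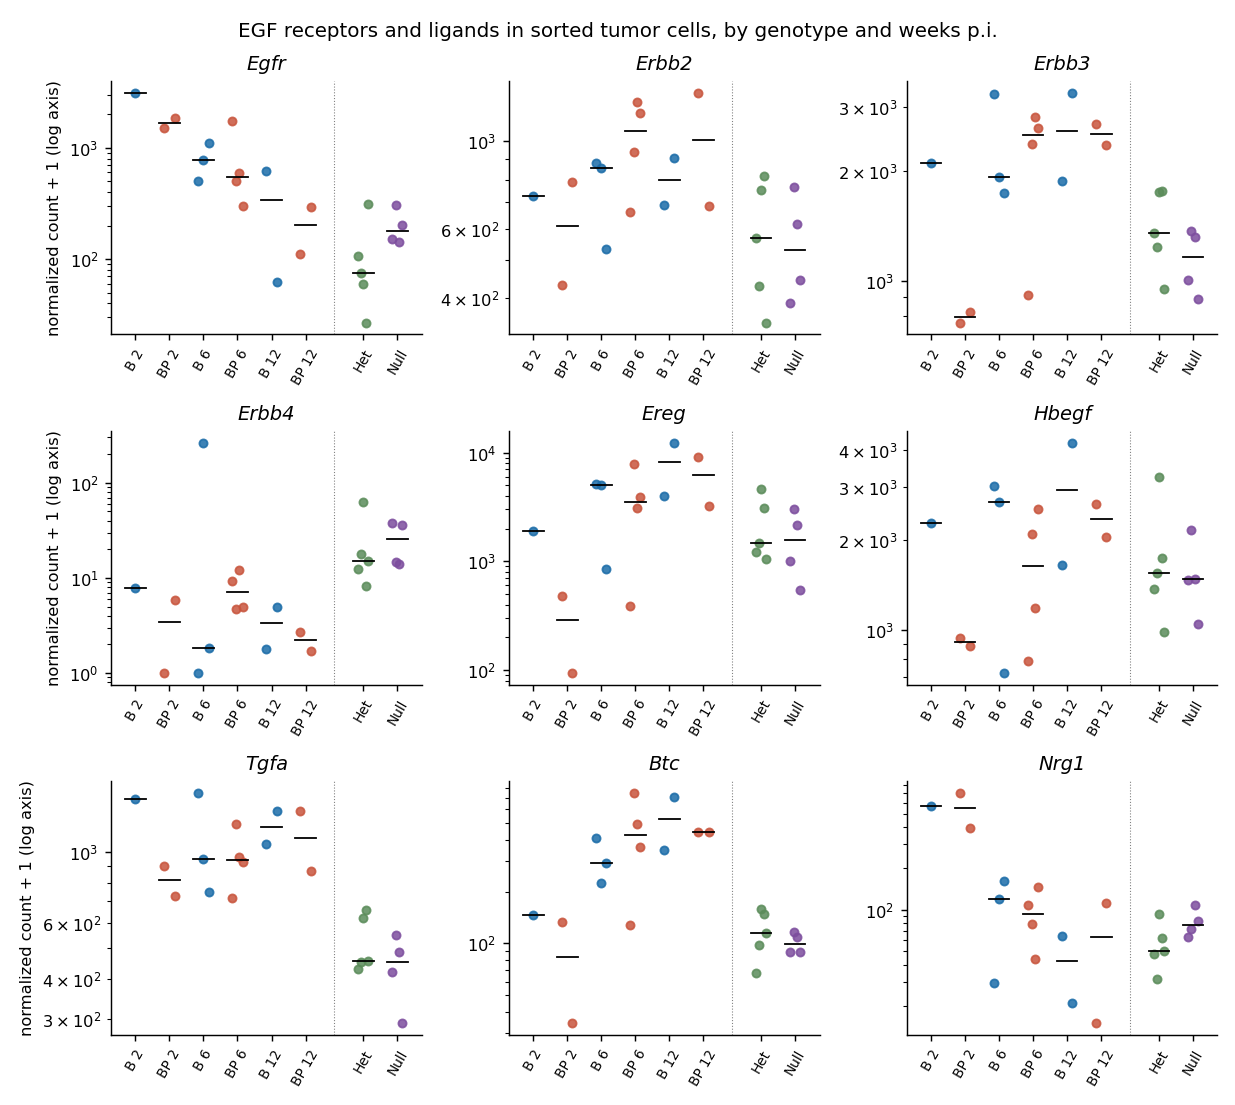
Normalized count plus 1 (log axis) of each member in each library, grouped as BRAFV600E (B) or BRAFV600E/PI3KαH1047R (BP), with the week p.i. after the letters, and as PGC1αHet or PGC1αNull at 12 weeks p.i. to the right of the dotted line, whose table was normalized separately. Points are libraries and black lines are medians, and the 3 Nrg1 values at 2 weeks p.i. lie above the 11 later ones left of the line.

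Over the time course, Egfr and Nrg1 were highest at 2 weeks p.i., whereas the 3 lowest values of Ereg, Btc and Erbb3 were those of both BRAFV600E/PI3KαH1047R libraries of 2 weeks and of replicate 1 of that genotype at 6 weeks. Nrg1 stood at 567.8 in the BRAFV600E library of 2 weeks and at 706.3 and 391.3 in the BRAFV600E/PI3KαH1047R libraries. At 6 weeks p.i. it stood at 28.6, 119.0 and 161.5 in BRAFV600E and at 107.7, 77.3, 42.7 and 146.2 in BRAFV600E/PI3KαH1047R. At 12 weeks p.i. the values were 63.5 and 20.01 in BRAFV600E and 14.04 and 110.7 in BRAFV600E/PI3KαH1047R. The 3 libraries of 2 weeks thus lay above all 11 later ones. How many of all genes did so was not counted. Between 2 and 6 weeks the log2 fold change of Nrg1, with genotype as a covariate, was -2.67 ± 0.66 (SE; adjusted p = 0.161).

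Egfr, the receptor of most ligands here, stood at 3130.3 in BRAFV600E and at 1511 and 1834 in BRAFV600E/PI3KαH1047R at 2 weeks p.i. At 6 weeks it stood at 501.0, 780.8 and 1105 in BRAFV600E and at 1743, 501.8, 585.9 and 300.9 in BRAFV600E/PI3KαH1047R. At 12 weeks it stood at 613.4 and 61.3 in BRAFV600E and at 109.2 and 290.2 in BRAFV600E/PI3KαH1047R. One library of 6 weeks reached the range of 2 weeks, and the weeks otherwise followed each other downward with overlap between 6 and 12 weeks. The log2 fold change was -1.63 ± 0.63 from 2 to 6 weeks (adjusted p = 0.326) and -1.89 ± 0.57 from 6 to 12 weeks (adjusted p = 0.861). Without both BRAFV600E/PI3KαH1047R libraries of 12 weeks the latter was -2.06 (adjusted p = 0.999).

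Ereg went the other way. It stood at 1911 in BRAFV600E and at 478.4 and 93.1 in BRAFV600E/PI3KαH1047R at 2 weeks p.i. At 6 weeks it stood at 5103, 5009.9 and 849.9 in BRAFV600E and at 388.6, 7907, 3120.1 and 3887 in BRAFV600E/PI3KαH1047R. At 12 weeks it stood at 3959 and 12328 in BRAFV600E and at 9182 and 3219.97 in BRAFV600E/PI3KαH1047R. All 4 libraries of 12 weeks lay above the 3 of 2 weeks, while those of 6 weeks spanned both. The share of all genes that separated 12 from 2 weeks was not counted. The log2 fold change of Ereg was 2.48 ± 0.93 from 2 to 6 weeks (adjusted p = 0.319) and 1.18 ± 0.84 from 6 to 12 weeks (adjusted p = 0.901). Leaving out 1 library, the former was 1.48 without BRAFV600E/PI3KαH1047R replicate 2 of 2 weeks and 3.51 without the BRAFV600E library of 2 weeks. The latter was 0.76 without BRAFV600E replicate 3 of 6 weeks.

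Btc stood at 144.4 in BRAFV600E and at 131.4 and 33.4 in BRAFV600E/PI3KαH1047R at 2 weeks p.i. At 6 weeks it stood at 407.3, 222.4 and 291.6 in BRAFV600E and at 127.0, 748.4, 493.6 and 362.5 in BRAFV600E/PI3KαH1047R. At 12 weeks it stood at 348.5 and 707.7 in BRAFV600E and at 445.3 and 445.1 in BRAFV600E/PI3KαH1047R. Apart from 1 library of 6 weeks, the later values lay above those of 2 weeks. The log2 fold change was 1.93 ± 0.53 from 2 to 6 weeks (adjusted p = 0.200) and 0.49 ± 0.48 from 6 to 12 weeks (adjusted p = 0.932). The former was 1.26 without BRAFV600E/PI3KαH1047R replicate 2 of 2 weeks, and the latter 0.27 without replicate 1 of that genotype at 6 weeks.

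Erbb3, the receptor for neuregulins that relies on its partners, stood at 2109 in BRAFV600E and at 765.1 and 820.3 in BRAFV600E/PI3KαH1047R at 2 weeks p.i. At 6 weeks it stood at 3253, 1926 and 1737 in BRAFV600E and at 912.6, 2382, 2824 and 2632 in BRAFV600E/PI3KαH1047R. At 12 weeks it stood at 1882 and 3290.3 in BRAFV600E and at 2694 and 2358 in BRAFV600E/PI3KαH1047R. The 3 low libraries named above lay below the other 11, of which 1737 was the lowest. The log2 fold change was 0.90 ± 0.37 from 2 to 6 weeks (adjusted p = 0.366) and 0.23 ± 0.34 from 6 to 12 weeks (adjusted p = 0.962). The former was 1.36 without the BRAFV600E library of 2 weeks, and the latter 0.059 without BRAFV600E/PI3KαH1047R replicate 1 of 6 weeks and 0.44 without BRAFV600E replicate 1 of 12 weeks.

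From 2 to 6 weeks the other members moved less than those above or were close to 0. The log2 fold changes in that step were 0.34 ± 0.48 for Hbegf, -0.04 ± 0.27 for Tgfa and 0.49 ± 0.31 for Erbb2. From 6 to 12 weeks they were 0.58 ± 0.43 for Hbegf, 0.20 ± 0.24 for Tgfa and 0.02 ± 0.28 for Erbb2. Hbegf moved more than Btc and Erbb3 in this second step. Leaving out 1 library, Hbegf ranged from 0.17 (without BRAFV600E/PI3KαH1047R replicate 2 of 2 weeks) to 0.73 (without the BRAFV600E library of 2 weeks) in the first step. It stood at 0.29 (without BRAFV600E replicate 3 of 6 weeks) in the second. Erbb2 ranged from 0.17 (without BRAFV600E/PI3KαH1047R replicate 1 of 2 weeks) to 0.72 (without the BRAFV600E library of 2 weeks) in the first step. Tgfa ranged from 0.050 (without BRAFV600E/PI3KαH1047R replicate 1 of 12 weeks) to 0.30 (without BRAFV600E replicate 1 of 6 weeks) in the second. Erbb4 was listed at 0 in 2 of the 14 libraries and reached at most 10.98 in 13 of them, against 263.0 in BRAFV600E replicate 2 at 6 weeks. It passed the filter on low values in the first table through that 1 library, so its fold changes there describe no group. From 6 to 12 weeks Nrg1 stood at -1.12 ± 0.60, at -0.59 without BRAFV600E/PI3KαH1047R replicate 1 of 12 weeks and at -1.70 without replicate 2. The log2 fold changes from 6 to 12 weeks without both BRAFV600E/PI3KαH1047R libraries of 12 weeks were 0.84 for Ereg, 0.51 for Btc, -1.20 for Nrg1, 0.38 for Hbegf and 0.097 for Tgfa. Those of Erbb3 and Erbb2 were then -0.036 and -0.017, against 0.23 and 0.02 with those libraries.

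Leaving aside Erbb4, none of the 8 members passed an adjusted p of 0.05 in either step of the time course (limma). Of all 17558 genes tested, 0.0513% passed from 2 to 6 weeks and 0.0% from 6 to 12 weeks. At an unadjusted p of 0.05, 5 of the 8 members (Nrg1, Btc, Ereg, Egfr and Erbb3) passed from 2 to 6 weeks, where 11.9% of all genes did. From 6 to 12 weeks 1 of 8 passed, Egfr, where 5.31% of all genes did. Counted without a model, 1 member, Nrg1, had all libraries of 6 weeks below all of 2 weeks, which held for 1.61% of genes, and no member lay wholly above, which held for 1.49%. No member separated the libraries of 12 from those of 6 weeks, where 0.41% of genes lay wholly higher and 0.308% wholly lower. The median log2 fold change from 2 to 6 weeks was 0.41 over the 8 members other than Erbb4 and 0.02 over all genes.

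Cell type markers also differed between these weeks. From 2 to 6 weeks 10 of 10 AT2 markers were higher (median log2 fold change 1.65) and 7 of 8 AT1 markers lower (median -0.90), as were 7 of 8 fibroblast markers (median -0.89), while 7 of 8 lymphocyte markers were higher (median 1.12). From 6 to 12 weeks all 10 AT2 markers (median 0.58) and 8 of 9 macrophage markers (median 1.25) were higher, and 9 of 10 endothelial (median -0.84), 7 of 8 AT1 (median -0.44) and 6 of 8 fibroblast markers (median -0.64) lower. None passed the adjusted threshold in either step. Summed AT2 markers ranged from 57634 to 650337 at 2 weeks, from 231167 to 1119680 at 6 weeks and from 724850 to 1282980 at 12 weeks. Summed AT1 markers ranged from 96775 to 154627, from 42056 to 112980 and from 31520 to 61398 at these weeks, and no marker of either list was at 0. Summed fibroblast markers ranged from 11376 to 34694, from 5284 to 24406 and from 2307 to 12867, also with none at 0. Summed endothelial markers ranged from 6818 to 60069, from 10395 to 84651 and from 5879 to 31088.5, summed macrophage markers from 1164 to 3661.8, from 645.6 to 2392 and from 1837 to 7882, and summed lymphocyte markers from 866.0 to 1725, from 1426 to 5258 and from 1861 to 3549. Their part in the time course of the members was not tested. In bulk RNA, fewer cells of a type and less RNA per cell cannot be told apart.

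Activated PI3Kα was compared with BRAFV600E alone. By label, the BRAFV600E libraries were 5 female and 1 male, and the BRAFV600E/PI3KαH1047R libraries 3 female and 5 male. Sex thus went partly with genotype when the weeks were combined. With all weeks combined, the log2 fold changes of the ligands in BRAFV600E/PI3KαH1047R against BRAFV600E were -1.13 ± 0.95 for Ereg, -0.53 ± 0.39 for Hbegf, -0.29 ± 0.20 for Tgfa, -0.33 ± 0.60 for Btc and 0.36 ± 0.84 for Nrg1 (SE; 8 and 6 libraries). Those of the receptors were -0.06 ± 0.78 for Egfr, 0.18 ± 0.25 for Erbb2 and -0.44 ± 0.35 for Erbb3. Erbb4 is left out for its values near 0. The median was -0.31 over these 8 members and 0.02 over all genes. Each interval of 95% included 0, and for Ereg it ran from -3.15 to 0.89. These values hold no term for the week. With week as a factor they were -0.82 for Ereg, -0.45 for Hbegf, -0.27 for Tgfa, -0.12 for Btc, 0.048 for Nrg1, -0.35 for Egfr, 0.23 for Erbb2 and -0.35 for Erbb3. Leaving out 1 library, Ereg ranged from -1.54 (without BRAFV600E replicate 3 of 6 weeks) to -0.54 (without BRAFV600E/PI3KαH1047R replicate 2 of 2 weeks). Hbegf ranged from -0.84 (without the same BRAFV600E library) to -0.33 (without BRAFV600E replicate 2 of 12 weeks). Erbb2 ranged from 0.084 to 0.33, Erbb3 from -0.55 to -0.28 and Tgfa from -0.41 to -0.20. The sign turned for Egfr without any 1 of 6 libraries, up to 0.41 without the BRAFV600E library of 2 weeks. It turned for Btc (0.084) without BRAFV600E/PI3KαH1047R replicate 2 of 2 weeks. The sign of Nrg1 turned without either of 2 libraries, down to -0.048 without BRAFV600E replicate 2 of 12 weeks. With the replicate number as a block Btc stood at 0.063 and Nrg1 at -0.0015. Without both BRAFV600E/PI3KαH1047R libraries of 12 weeks, Ereg stood at -1.71, Hbegf at -0.75, Erbb3 at -0.63, Btc at -0.60, Tgfa at -0.35, Nrg1 at 0.85, Erbb2 at 0.13 and Egfr at 0.51. With the weeks combined, 10 of 10 AT2 markers were lower (median -0.94), and 10 of 10 endothelial (median 0.91), 8 of 8 AT1 (median 0.36), 8 of 9 macrophage (median 0.74) and 6 of 8 fibroblast markers (median 0.63) were higher in BRAFV600E/PI3KαH1047R and 7 of 8 lymphocyte markers lower (median -0.46), none past the adjusted threshold. Their part in the members' values was not tested.

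**Figure D3:**
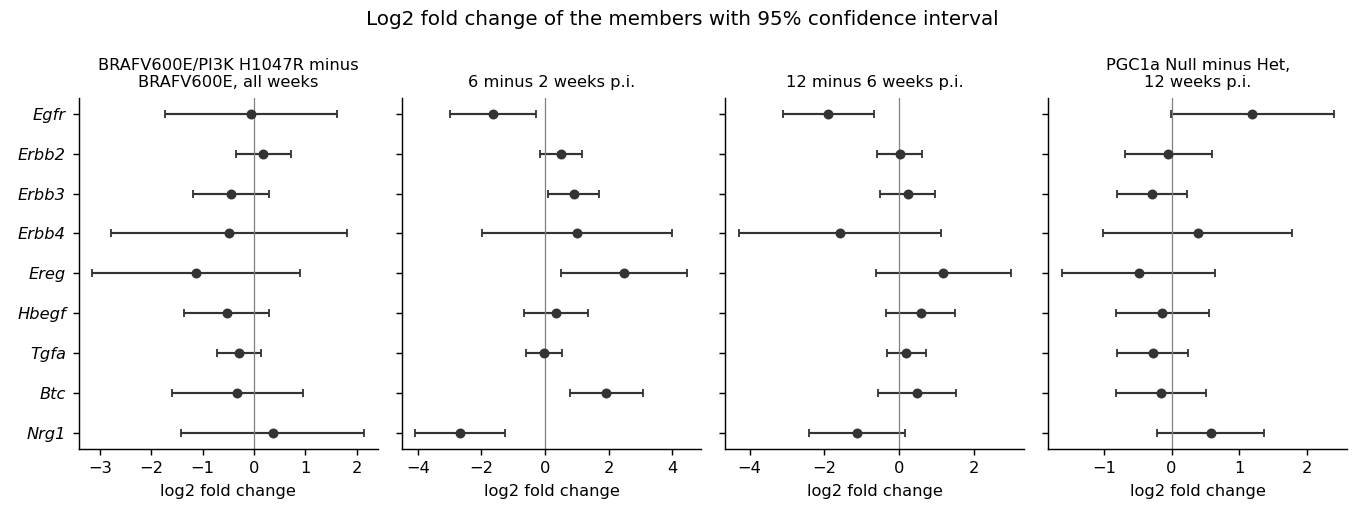
Log2 fold change (points) and its 95% confidence interval (bars) of each member in 4 comparisons, on the scale of log2(normalized count + 1). The intervals of Nrg1 and Btc lie farthest from 0 from 2 to 6 weeks p.i., and every interval includes 0 in both genotype comparisons. Erbb4 in the first table rests on 1 library.

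None of these 8 members passed an adjusted p of 0.05 with the weeks combined (limma, adjusted p 0.789 to 0.990), where 0.0228% of all genes did. At an unadjusted p of 0.05 also none passed, against 6.83% of all genes. Exact permutation tests over the libraries gave unadjusted p of 0.161 for Tgfa and 0.952 for Egfr, the lowest and the highest among them. With the genotypes permuted within weeks, a choice made after seeing the data, exact permutation tests gave unadjusted p from 0.213 for Tgfa to 0.919 for Nrg1. No member separated the genotypes, which 0.0854% of genes did upward and 0.125% downward.

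At 2 weeks p.i. 2 libraries were compared with 1. The log2 fold change was -3.17 ± 1.59 for Ereg, -1.41 ± 0.62 for Erbb3, -1.32 ± 0.86 for Hbegf, -1.11 ± 0.96 for Btc and -0.91 ± 1.18 for Egfr, with the spread taken from the other groups. It was -0.85 ± 0.48 for Tgfa, -0.31 ± 0.56 for Erbb2 and -0.11 ± 1.25 for Nrg1. Erbb4 stood at 6.80 in BRAFV600E and at 0 and 4.92 in the others, all near 0. With BRAFV600E/PI3KαH1047R replicate 1 or replicate 2 left out, Ereg stood at -4.35 or -1.996, Btc at -2.08 or -0.14, Erbb2 at 0.12 or -0.75 and Nrg1 at -0.54 or 0.31, so that the sign of Erbb2 and Nrg1 rests on 1 library. Hbegf illustrates the values, at 2286 in the BRAFV600E library and at 940.2 and 885.4 in the others. Of the members, 0 passed the adjusted threshold (0.0171% of all genes did) and 1, Erbb3, passed an unadjusted p of 0.05 (adjusted p = 0.351), where 13.5% of all genes did. Without replicate 1 of BRAFV600E/PI3KαH1047R at 6 weeks, which enters through the shared spread, the adjusted p of Erbb3 was 0.124.

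At 2 weeks p.i. the cell type markers also stood apart. All 10 AT2 markers were lower (median log2 fold change -2.55) and all 10 endothelial markers higher (median 2.95) in BRAFV600E/PI3KαH1047R. All 8 fibroblast markers (median 1.10) and all 9 macrophage markers (median 1.73) were higher too, as were 7 of 8 AT1 markers (median 0.59) and 10 of 12 immediate early genes, such as Fos and Jun, which cell stress induces quickly (median 0.94), with none past the adjusted threshold. Summed AT2 markers stood at 650337 in BRAFV600E and at 115561 and 57634 in BRAFV600E/PI3KαH1047R. Summed endothelial markers stood at 6818 and at 58643 and 60069, summed fibroblast markers at 11376 and at 24041 and 34694, and summed macrophage markers at 1164 and at 3661.8 and 2331.4. Their part in the lower values of the members was not tested. The BRAFV600E library was labelled female and both others male, so that sex and genotype cannot be told apart at this week.

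At 6 weeks p.i., with 3 and 4 libraries, the genotypes overlapped for each member. Erbb2 had the lowest p, with values of 878.4, 855.9 and 530.9 in BRAFV600E and 661.2, 937.8, 1255 and 1180.1 in BRAFV600E/PI3KαH1047R. Exact permutation tests gave unadjusted p from 0.229 (Erbb2) to 0.971, and 0.0571 is the smallest that 3 against 4 libraries allow. Of the members, 0 passed the adjusted threshold, which 0.0228% of all genes did, and 0 an unadjusted p of 0.05, which 4.24% did. At 12 weeks p.i., where both BRAFV600E/PI3KαH1047R libraries go against their sex labels and nothing remains without them, 0 of 8 passed either threshold. Of all genes 0.0114% passed adjusted and 3.76% unadjusted.

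The difference between the genotypes was also compared between weeks. From 2 to 6 weeks, in a contrast that holds the 2 week comparison already given, no member passed an adjusted or unadjusted p of 0.05, against 0.0% and 8.95% of all genes. From 6 to 12 weeks none passed either threshold, against 0.0% and 2.87% of all genes.

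Loss of PGC1α, a coactivator of mitochondrial genes, was compared at 12 weeks p.i. in the second table. Egfr had the largest difference, with 106.2, 74.1, 59.2, 25.7 and 311.5 in PGC1αHet and 151.1, 303.0, 140.0 and 202.7 in PGC1αNull. All 4 PGC1αNull libraries lay above 4 of the 5 PGC1αHet libraries and below the remaining one. The log2 fold change was 1.19 ± 0.56, with an interval from -0.01 to 2.40 (adjusted p = 0.998; exact permutation p = 0.143, unadjusted). It was 0.78 without PGC1αHet replicate 4 and 1.67 without replicate 5.

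Nrg1 stood at 46.4, 30.4, 92.5, 61.9 and 49.6 in PGC1αHet and at 62.6, 71.4, 107.5 and 81.5 in PGC1αNull. The groups overlapped in part, and the log2 fold change was 0.58 ± 0.36. Ereg ranged from 1051 to 4619 with a median of 1461 in PGC1αHet and stood at 997.6, 3032, 2158 and 548.6 in PGC1αNull, a log2 fold change of -0.49 ± 0.53. It was -0.87 without PGC1αNull replicate 2 and -0.046 without replicate 4. The remaining log2 fold changes were -0.29 ± 0.24 for Erbb3, -0.27 ± 0.24 for Tgfa, -0.16 ± 0.31 for Btc, -0.14 ± 0.32 for Hbegf, -0.05 ± 0.30 for Erbb2 and 0.39 ± 0.65 for Erbb4. Without PGC1αNull replicate 4, Erbb3 stood at -0.17, Tgfa at -0.093 and Hbegf at 0.033. Btc stood at -0.033 without PGC1αHet replicate 3 and at -0.34 without PGC1αHet replicate 1. Erbb4 ranged from 0.12 (without PGC1αHet replicate 4) to 0.85 (without PGC1αHet replicate 3).

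None of the 9 members passed an adjusted p of 0.05 between PGC1αNull and PGC1αHet (limma), nor an unadjusted one, where 0.0% and 3.83% of all 17424 genes did. No member separated the groups, which 0.941% of genes did upward and 0.459% downward. The smallest exact p for 4 against 5 libraries is 0.0159, and the lowest among the members was 0.111, for Nrg1. Summed endothelial markers were higher in PGC1αNull, at 1421 to 2131 against 335 to 837, and 10 of 10 such genes were higher (median log2 fold change 1.88). All 10 AT2 markers were lower (median -0.21), with sums of 394983 to 636260 against 513764 to 648250. Fibroblast markers were higher as well (7 of 7 tested, median 1.26), at summed levels of 403.2 to 1480.1 against 125.2 to 368.7, as were 6 of 7 lymphocyte markers (median 1.30), 7 of 9 macrophage markers (median 0.91) and 5 of 5 neutrophil markers (median 0.43). Up to 1 endothelial marker was at 0 in a library of this table and no fibroblast marker, and the part of these markers in the values of Egfr was not tested.

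Across the 14 libraries the members fell into opposite patterns relative to the alveolar markers, as shown in the plot against AT2 and AT1 markers. Ereg moved with the mean log2 level of the AT2 list at r = 0.94 (Spearman rho = 0.86), Erbb3 at r = 0.92 (rho = 0.76) and Btc at r = 0.89 (rho = 0.78). Permutation tests adjusted over 72 relations gave p = 0.00090, 0.00090 and 0.0011 for r and p = 0.0039, 0.014 and 0.011 for rho. Hbegf (r = 0.76, rho = 0.72) and Tgfa (r = 0.64, rho = 0.63) followed more loosely, with adjusted permutation p of 0.0034 and 0.032 for r and 0.022 and 0.054 for rho. Erbb2 (r = 0.44) did not pass, and Erbb4 is left out for its values near 0. The permutations ran over all 14 libraries without regard to genotype or week, so differences between those groups enter these p. No p was computed for r with the mean of each genotype and week removed.

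Egfr and Nrg1 had the opposite sign. With the AT2 list Egfr stood at r = -0.64 (rho = -0.79) and Nrg1 at r = -0.68 (rho = -0.75), with adjusted permutation p of 0.041 and 0.020 for r and 0.0094 and 0.015 for rho. With the AT1 list Egfr stood at r = 0.85 (rho = 0.82) and Nrg1 at r = 0.89 (rho = 0.79), with adjusted permutation p of 0.0012 and 0.0011 for r and 0.0075 and 0.0094 for rho. Ereg, in contrast, stood at r = -0.89 with the AT1 list (rho = -0.94; adjusted permutation p of 0.00090 and 0.00072).

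**Figure D4:**
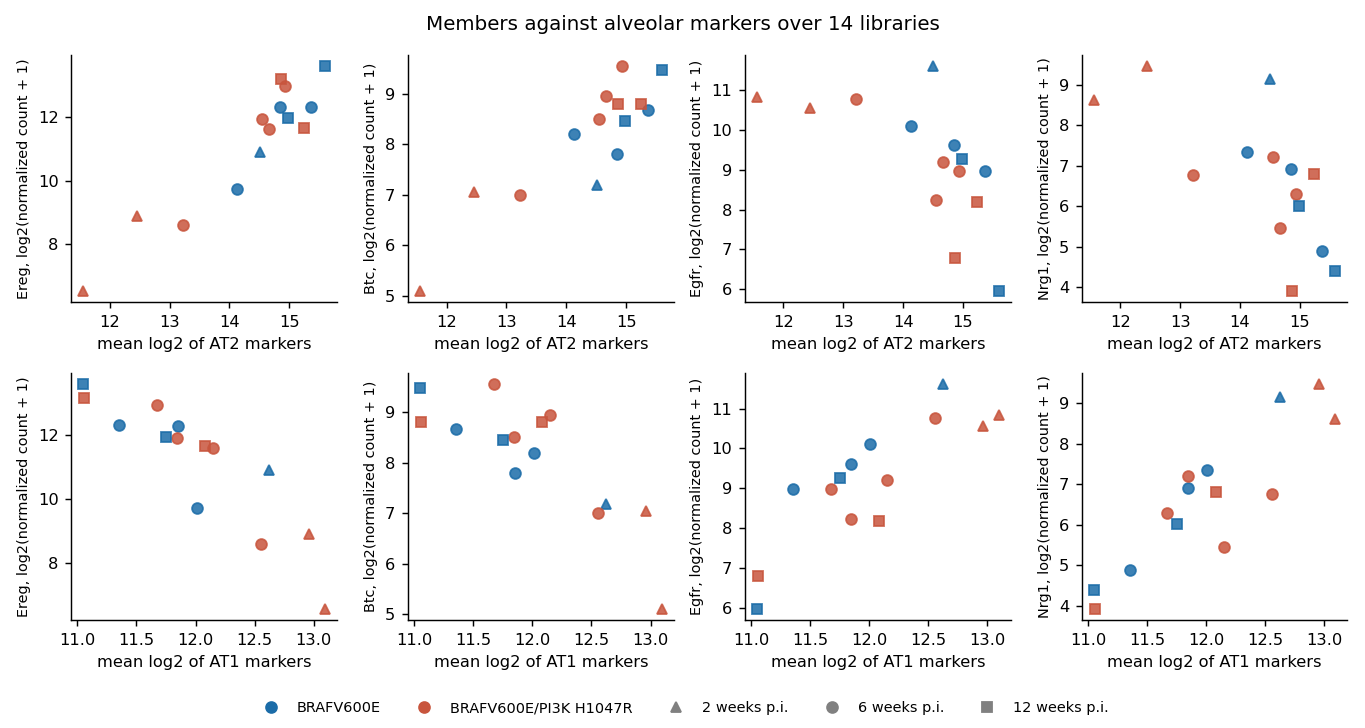
Each of 14 libraries by the mean log2 level of AT2 (top) or AT1 (bottom) markers on the horizontal axis and by log2(normalized count + 1) of Ereg, Btc, Egfr or Nrg1 on the vertical axis. Blue is BRAFV600E and red BRAFV600E/PI3KαH1047R, shapes give the weeks p.i., and Ereg and Btc rise with the AT2 markers where Egfr and Nrg1 rise with the AT1 markers.

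Both BRAFV600E/PI3KαH1047R libraries of 2 weeks were the farthest from the median of the AT2 list and of the AT1 list. Without them r with the AT2 list was 0.88 for Ereg, 0.86 for Erbb3, 0.73 for Btc, 0.80 for Hbegf, 0.65 for Tgfa, -0.65 for Egfr and -0.47 for Nrg1. With the AT1 list it was 0.86 for Egfr, 0.83 for Nrg1 and -0.81 for Ereg. Once the mean of each genotype and week was removed, r with the AT2 list was 0.90 for Ereg, 0.83 for Erbb3 and 0.86 for Btc, but -0.28 for Nrg1. With the AT1 list, r within groups was 0.71 for Nrg1 and 0.85 for Egfr. Removing group means leaves the single BRAFV600E library of 2 weeks no deviation and gives groups of 2 libraries mirrored ones. The r within groups thus rest on fewer independent values than libraries. Without both BRAFV600E/PI3KαH1047R libraries of 12 weeks, r with the AT2 list was 0.96 for Ereg, 0.92 for Erbb3 and -0.64 for Egfr, the last with an adjusted permutation p of 0.086. With the AT1 list it was then 0.84 for Egfr, 0.86 for Nrg1 and -0.89 for Ereg.

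Other genes followed these lists as well. Among all 17558 genes tested, 0.67% had an r with the AT2 list at or above that of Ereg, 0.86% at or above that of Erbb3, 1.53% at or above that of Btc, 4.71% at or above that of Hbegf and 8.62% at or above that of Tgfa. An r at or below that of Egfr was found for 9.31% and that of Nrg1 for 6.95%. With the AT1 list, 1.63% of genes stood at or above Egfr, 0.73% at or above Nrg1 and 0.0683% at or below Ereg.

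Markers of cells outside the alveolar epithelium moved with the members as well. Erbb3 (r = -0.84, rho = -0.87), Hbegf (r = -0.85, rho = -0.83) and Tgfa (r = -0.87, rho = -0.85) stood opposite the endothelial list, with adjusted permutation p of 0.0012, 0.0012 and 0.0011 for r and 0.0039, 0.0061 and 0.0039 for rho. Without the 2 libraries farthest from the median of that list, r was -0.79, -0.76 and -0.84. It was -0.84, -0.85 and -0.88 without both BRAFV600E/PI3KαH1047R libraries of 12 weeks. Ereg stood at r = -0.75 (rho = -0.73), with adjusted permutation p of 0.0072 for r and 0.020 for rho, and at -0.66 without the 2 farthest libraries. Among all genes, 0.581% had an r with this list at or below that of Erbb3, 0.444% that of Hbegf, 0.216% that of Tgfa and 2.68% that of Ereg. Egfr stood at r = 0.55 with the endothelial list over the 14 libraries (rho = 0.58; adjusted permutation p = 0.097 and 0.087), at r = 0.94 once group means were removed and at r = 0.27 without the 2 farthest libraries. The single BRAFV600E library of 2 weeks combined the highest Egfr with few endothelial counts, and without it r over 13 libraries was 0.91. Summed endothelial markers ranged from 5879 to 84651 in these sorted libraries. Whether the members' levels came from endothelial, fibroblast or alveolar cells was not tested.

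With the fibroblast list Erbb3 stood at r = -0.86 (rho = -0.85), Ereg at r = -0.82 (rho = -0.71) and Btc at r = -0.78 (rho = -0.79), with adjusted permutation p of 0.00090, 0.0013 and 0.0034 for r and 0.0039, 0.024 and 0.0094 for rho. Egfr stood at r = 0.76 (rho = 0.67) and Nrg1 at r = 0.74 (rho = 0.66), with adjusted permutation p of 0.0072 and 0.011 for r and 0.036 and 0.041 for rho. Without the 2 libraries farthest from the median of that list, r was -0.81 for Erbb3, -0.70 for Ereg, -0.64 for Btc, 0.63 for Egfr and 0.63 for Nrg1. Within groups it was 0.88 for Egfr and 0.71 for Nrg1. With the libraries of BRAFV600E/PI3KαH1047R at 12 weeks left out it was -0.90 for Erbb3, -0.81 for Ereg, -0.81 for Btc, 0.71 for Egfr and 0.66 for Nrg1, the latter with an adjusted permutation p of 0.059. Tgfa (r = -0.71, rho = -0.69) and Hbegf (r = -0.69, rho = -0.56) passed with adjusted permutation p of 0.0155 and 0.023 for r and 0.029 and 0.092 for rho, and r without the 2 farthest libraries was -0.61 and -0.52. Among all genes, 0.154% had an r with this list at or below that of Erbb3, 0.695% that of Ereg, 1.58% that of Btc, 3.79% that of Tgfa and 4.89% that of Hbegf, while 5.54% stood at or above Egfr and 6.60% at or above Nrg1.

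Of the remaining lists, Tgfa stood at r = -0.62 with the immediate early genes (rho = -0.59; adjusted permutation p of 0.049 and 0.080), and 3.47% of genes stood at or below it. Without the 2 farthest libraries its r was -0.39. With group means removed, r with that list was -0.87 for Erbb3, -0.75 for Ereg, -0.74 for Tgfa and 0.74 for Egfr, and with the lymphocyte list -0.88 for Tgfa, -0.88 for Ereg, -0.82 for Hbegf and 0.75 for Egfr. Over all 14 libraries no member passed with the lymphocyte, macrophage or neutrophil list.

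**Figure D5:**
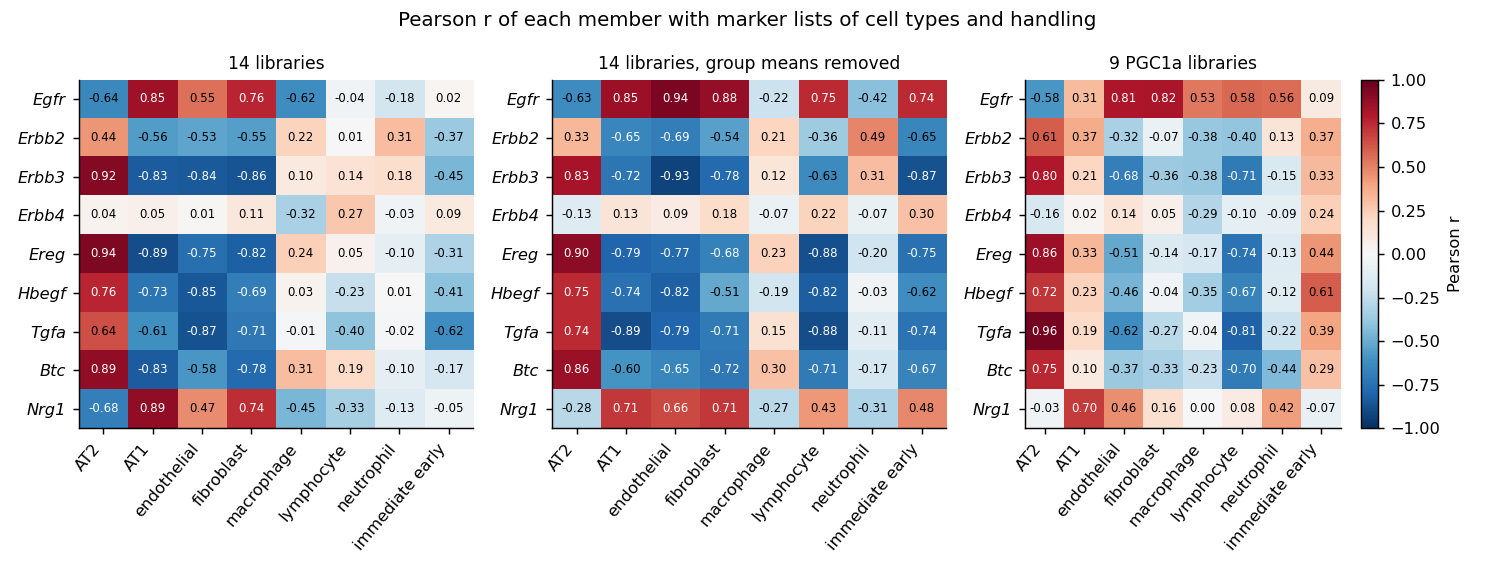
Pearson r of each member (rows) with the mean log2 level of 8 marker lists (columns) over 14 libraries (left), over the same libraries with group means removed (middle) and over the 9 PGC1α libraries (right). Red is positive and blue negative, and Ereg, Hbegf, Tgfa, Btc and Erbb3 are positive with the AT2 list in all 3 panels. Erbb4 in the first 2 panels rests on 1 library. With group means removed, the single BRAFV600E library of 2 weeks p.i. adds nothing to r.

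In the 9 PGC1α libraries Tgfa, Ereg, Erbb3, Btc and Hbegf again had a positive r with the AT2 list. Tgfa stood at r = 0.96 (rho = 0.80) with an adjusted exact permutation p of 0.029 for r and 0.37 for rho, the 1 relation of 72 that passed. Without the 2 farthest libraries its r was 0.86, and its adjusted p lay above the threshold without any 1 of 7 libraries, up to 0.25 without replicate 4 of PGC1αNull. Ereg stood at r = 0.86 (rho = 0.77; adjusted exact permutation p of 0.13 and 0.37) and Erbb3 at r = 0.80 (rho = 0.73; 0.15 and 0.37), with 0.75 and 0.56 without the 2 farthest. Btc stood at r = 0.75 (rho = 0.82) and Hbegf at r = 0.72 (rho = 0.73). Egfr stood at r = 0.81 with the endothelial list (rho = 0.75; adjusted exact permutation p of 0.15 and 0.37), and at 0.63 without the 2 farthest. With the fibroblast list it stood at r = 0.82 (rho = 0.70; adjusted exact permutation p of 0.15 and 0.42), and at 0.68 without the 2 farthest, and 0.43% of genes reached its r there against 1.03% with the endothelial list. Its r with the AT1 list was 0.31, where it had been 0.85 in the first table.

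The members also moved with each other, given as a description over the 14 libraries, whose marker levels differ widely. Ereg and Btc stood at r = 0.90, Ereg and Erbb3 at r = 0.89, and Egfr and Nrg1 at r = 0.81. Egfr, the receptor, and Ereg, its ligand, stood at r = -0.75 over the 14 and at r = -0.48 over the 9 libraries. Erbb3 and its ligand Nrg1 stood at r = -0.70 and at r = 0.16. With the other Egfr ligands, Egfr stood at r = -0.67 for Hbegf, -0.40 for Tgfa and -0.74 for Btc over the 14 libraries. The values without both BRAFV600E/PI3KαH1047R libraries of 12 weeks were 0.91 for Ereg and Btc, 0.89 for Ereg and Erbb3, 0.78 for Egfr and Nrg1, -0.72 for Egfr and Ereg and -0.71 for Erbb3 and Nrg1.

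Among 12149 genes with mean normalized counts of at least 40 in both tables, those most like each of 8 members over the 14 libraries were sought. Ereg was most like Slc38a2, an amino acid transporter (r = 0.98), and Npc2, a lysosomal cholesterol carrier (r = 0.97), and both kept r = 0.95 and 0.94 over the 9 PGC1α libraries. Erbb3 was most like Tpm1, a tropomyosin (r = 0.97; 0.84 over the 9), and Exosc7, a subunit of the RNA exosome (r = 0.97; 0.82). Egfr was most like Akap2 (r = 0.96; 0.65) and Scnn1g, a subunit of the epithelial sodium channel (r = 0.95; 0.78). Nrg1 was most like Tgfb2, a TGF-beta ligand (r = 0.93; -0.51), and Sema3e, a semaphorin (r = 0.92; 0.01), which did not carry over to the 9 libraries. Hbegf was most like Myc (r = 0.93; 0.39) and Ndufa10 (r = 0.93; 0.76). Tgfa was most like Tmem88b (r = 0.94; -0.15) and Gpt2 (r = 0.94; 0.72), and Btc most like Atp11b (r = 0.96; -0.68) and Irak3 (r = 0.95; 0.52). Erbb2 was most like Olfr414 (r = 0.85; -0.86) and Rps6ka3 (r = 0.85; 0.83), and Erbb4 was left out for its values near 0. These r without both BRAFV600E/PI3KαH1047R libraries of 12 weeks lay between 0.83 for Olfr414 and 0.98 for Slc38a2.

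Of 32 other genes of the pathway (further ligands, genes of ligand release, adaptors and inhibitors of the receptors), 31 could be tested and none passed the adjusted threshold in any comparison (limma). With the weeks combined, 15 were higher and 16 lower in BRAFV600E/PI3KαH1047R, with a median log2 fold change of -0.01, and 4 had an unadjusted p under 0.05, where 6.83% of all genes did. Among 5 genes of ligand release, 4 were lower and 1 higher. Adam17, the main protease that frees Egfr ligands, stood at -0.54 ± 0.19 (adjusted p = 0.565), Rhbdl2, a rhomboid protease, at -1.12 ± 0.49 (adjusted p = 0.692) and Rhbdf1, which aids Adam17 transport, at -0.91 ± 0.46. Among 11 inhibitors, 6 were higher and 5 lower. Lrig1, which lowers receptor levels, stood at -1.08 ± 0.46 (adjusted p = 0.684), Lrig2 at 0.49 ± 0.17 (adjusted p = 0.546) and Errfi1, a feedback inhibitor of the kinases, at -0.75 ± 0.37. The values without both BRAFV600E/PI3KαH1047R libraries of 12 weeks were -0.60 for Adam17, -1.49 for Rhbdl2, -0.71 for Rhbdf1, -1.07 for Lrig1, 0.50 for Lrig2 and -0.99 for Errfi1.

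Among 11 adaptors, 6 were higher and 5 lower with the weeks combined and Sos1, which loads RAS with GTP, stood at -0.29 ± 0.15. Of the 4 further ligands tested (Egf, Epgn, Nrg3 and Nrg4), 2 were higher and 2 lower. In PGC1αNull against PGC1αHet, 11 of the 31 were higher and 20 lower, with a median of -0.11. Src, a kinase that acts with Egfr, stood at -0.79 ± 0.36 (adjusted p = 0.998). It was the 1 gene of the lists with an unadjusted p under 0.05, where 3.83% of all genes had one. Leaving out 1 library, Src ranged from -1.10 (without PGC1αNull replicate 2) to -0.49 (without PGC1αNull replicate 1). Lrig3 stood at 1.21 ± 0.58. From 2 to 6 weeks 13 were higher and 18 lower, and from 6 to 12 weeks 23 were higher and 8 lower.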

How the data were processed

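RNA of sorted tdTomato+ cells was sequenced by the authors in 23 libraries. The deposited signal values are normalized counts, which the authors made from Salmon estimates with DESeq2, separately for each table of 14 and 9 libraries. The submitters' processing notes name FastQC, Salmon, DESeq2 and GRCm38. Versions are not given in the sources used here. The values are not whole reads, so limma 3.58.1 (R 4.3.3) was fitted to log2(normalized count + 1), for genes averaging at least 10, with Benjamini-Hochberg adjustment over all genes, and its fold changes understate those of low genes. It was tested on simulated data. The authors' comparison tables of base means, fold changes and p-values were not used. Groups came from the labels, and individual mice are the replicates. Same-numbered replicates did not deviate together (r from -0.28 to -0.01 at 6 weeks), so no pairing was used. Relations to markers were tested by permutation (100000 draws, or exact for 9 libraries). The rule named all 10 members, of which Areg is not analysed and Erbb4 is left out of most results of the first table, and beside them the pathway genes of lowest unadjusted p, at most 4 a list, the 2 genes most like each member other than Erbb4 and the targeted gene. The members and lists were chosen with earlier results of these data known. Exons of Erbb2, Ereg, Tgfa and Nrg1 overlap other annotated genes, and whether counting used strand is not given in the sources used here. Alternatives tried were another pseudocount, filter, normalization, sex, week or replicate as terms, and leaving out libraries. The main comparison with the weeks combined holds genotype alone.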

Additional observations from a re-analysis of the deposited data

Results flagged for a closer look

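In the group of 4 BRAFV600E/PI3KαH1047R libraries at 6 weeks p.i., replicate 1 stood far below the others for Erbb3, at a normalized count of 912.6 against 2382 to 2824. On the log2 scale its gap to the nearest library spanned 0.849 of the range of the group, above the critical value of 0.829 for 4 samples, but on the scale of normalized counts 0.769, below it. Of 27 pairs of a member and a group looked at, this was the 1 that stood apart on the log2 scale, and chance alone gives about 1 in 20. The same library held the lowest Ereg (388.6) and Btc (127.0) and the highest Egfr (1743) of its group. Its summed AT2 markers were 231167 against 554498 to 727304 in the other 3, and its summed endothelial markers 84651 against 16586 to 22744. It was also higher in summed fibroblast markers (24406 against 7727 to 8847), AT1 markers (112980 against 48839 to 64192) and immediate early genes (28469 against 12595 to 15629). Their part in these values was not tested.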

How the results depend on the processing

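In the comparisons with fold changes, none of the members passed the adjusted threshold under the alternatives run. Leaving aside Erbb4 in the first table, a member kept its direction in 751 refits and changed sign in 31, and the pathway genes named kept theirs in all 205. The sign changed to 0.041 for Tgfa from 2 to 6 weeks with quantile normalization, and to 0.20 for Nrg1 at 2 weeks with sex in the model. Without both BRAFV600E/PI3KαH1047R libraries of 12 weeks it changed to 0.51 for Egfr with the weeks combined, and from 6 to 12 weeks to -0.017 for Erbb2 and -0.036 for Erbb3. Same-numbered libraries correlated at -0.28, -0.03 and -0.01 at 6 weeks, at -0.15 at 12 weeks and from -0.47 to 0.21 in the PGC1α table. With the replicate number as a block, 6 genes passed with the weeks combined, Btc stood at 0.063 and Nrg1 at -0.0015.

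Leaving out 1 library at a time, the log2 fold change with the weeks combined ranged from -0.72 to 0.41 for Egfr, from -0.55 to 0.084 for Btc and from -0.048 to 0.90 for Nrg1. At 2 weeks it ranged from -0.75 to 0.12 for Erbb2 and from -0.54 to 0.31 for Nrg1. It ranged from -0.22 to 0.22 for Tgfa from 2 to 6 weeks and from -0.18 to 0.19 for Erbb2 from 6 to 12 weeks. In PGC1αNull it ranged from -0.22 to 0.10 for Erbb2 and from -0.32 to 0.11 for Hbegf. From 2 to 6 weeks the lowest adjusted p of a member was that of Btc, 0.066, without BRAFV600E/PI3KαH1047R replicate 1 of 6 weeks, and its log2 fold change was then 2.18.

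The count of all genes passing ranged from 3 to 9 with the weeks combined (9 without BRAFV600E/PI3KαH1047R replicate 1 of 12 weeks) and from 0 to 268 at 2 weeks (268 without BRAFV600E/PI3KαH1047R replicate 1 of 6 weeks). It ranged from 1 to 12 at 6 weeks (12 without either BRAFV600E library of 12 weeks) and from 2 to 4 at 12 weeks. From 2 to 6 weeks it ranged from 1 to 102 (102 without the BRAFV600E library of 2 weeks, 47 without BRAFV600E/PI3KαH1047R replicate 1 of 6 weeks), and the interactions gave 0 to 30 and 0 to 1. A pseudocount of 4 gave 7 genes with the weeks combined, 0 at 2, 7 at 6 and 4 at 12 weeks, and 3 from 2 to 6 weeks. With all genes above 0 kept, 107 passed at 2, 1 at 6 and 16 at 12 weeks, and 44 and 2 for the interactions. Quantile normalization gave 0 at 2, 7 at 6 and 4 at 12 weeks, 2 for the later interaction and 4 from 2 to 6 weeks. With sex in the model 0 passed at 2 weeks, 1 at 6 weeks and 4 from 2 to 6 weeks. Without both BRAFV600E/PI3KαH1047R libraries of 12 weeks, 1 passed at 2 weeks, 1 at 6 weeks and 3 from 2 to 6 weeks.

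The relations to the AT2, AT1, endothelial and fibroblast lists were refitted under another pseudocount, quantile normalization and with libraries left out. These alternatives were chosen after seeing the data. Relations to the other lists, such as that of Tgfa with the immediate early genes, were not among these refits. Of the refits, 972 kept their side of the threshold, 30 lost it and 6 gained it. The relations lost were those of Egfr, Nrg1 and Tgfa with the AT2 list and of Hbegf, Tgfa and Nrg1 with the fibroblast list. With the median transcript length, 7 of 18 levels per kb moved by more than 1 SD, and none did without both BRAFV600E/PI3KαH1047R libraries of 12 weeks. With 1 BRAFV600E library at 2 weeks, comparisons at that week rest on the spread of other groups.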
